A study of Homo sapiens with 4 samples.

Results

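Membrane-anchored serine proteases and their Kunitz-type inhibitors were followed in MCF12A cells edited at *C1orf132*. Of 9 genes, *TMPRSS4* comes first and was chosen by its own measured difference between the edited and wild-type libraries. The other members, *ST14*, *PRSS8*, *PRSS22*, *TMPRSS2*, *TMPRSS13*, *TMPRSS11E*, *SPINT1* and *SPINT2*, were selected by family with results of the same libraries known. The difference between the groups is therefore given for the members as a description, without a test. Of the 9 genes, 7 were among the 16811 genes of the table, namely 5 proteases and 2 inhibitors. *TMPRSS2* and *TMPRSS11E* were not analysed here.

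Membrane-anchored serine proteases are trypsin-like enzymes whose catalytic domain faces the outside of the cell. They are made as inactive zymogens, and several activate each other or cut growth factors, receptors, ion channels and adhesion molecules at the epithelial surface. In epithelia, matriptase (*ST14*) and prostasin (*PRSS8*) form the best known such cascade, and the transmembrane inhibitors HAI-1 (*SPINT1*) and HAI-2 (*SPINT2*) hold it in check.

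MCF12A, a human line of mammary epithelium, is non-tumorigenic, although the submitters' source label calls it a breast cancer line. The edited cells (genotype C1orf132 KO) carry a CRISPR/Cas9 deletion of the distal p2 promoter of *C1orf132*, the host gene of miR-29b2 and miR-29c, and the wild-type cells do not. Both were grown in the same medium with horse serum, EGF, hydrocortisone, cholera toxin and insulin. Each group had 2 libraries of poly(A)-selected RNA, which the study calls biological replicates. Edited colonies were grown from sorted single cells, and no cloning of the wild-type cells is described, so the edit and a difference between clones cannot be told apart.

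The deposited values are a normalized expression signal per gene. The values of the 4 libraries summed to between 1444640 and 1655440. In genes with a single annotated transcript of 200 to 1000 bases, values above 0 were multiplied by length in kb. The 5 lowest products of each library were used. They gave about 0.106 and 0.101 in edited cells against 0.120 and 0.117 in the wild-type libraries, taken as the value of 1 read on 1 kb. In edited replicate 1 the 5 products ran from 0.0823 to 0.111. The lowest of many products lie close together with or without scaling for length, and unscaled values were not compared. In the 561 single-transcript genes of 1000 to 9000 bases, the lowest product was between 0.0502 and 0.581 in the 4 libraries. The product of 0.0502, in edited replicate 1, is under the value taken for 1 read there. Scaling for length was thus not shown. Comparisons of levels between genes, sums over genes and the read numbers given below assume that it holds for the transcripts of the members. The read numbers also rest on the value taken for 1 read. They are estimates from the canonical transcript and cover counting error only. Where a pair of values is given for a group, replicate 1 comes first. The genotype labels were not checked against *C1orf132*, which was not analysed here. All 12 listed mammary epithelial markers were in the table. *KRT5*, a basal keratin gene, was at 4590 and 11914 in wild-type cells, with 3514 and 3056 in edited cells, and did not pass (limma, adjusted p = 0.146). Summed over the list, the markers reached 5679 and 8429 in edited cells against 14273 and 23448 in the wild-type libraries. Of 11 epithelial markers with a mean of at least 10, 4 were lower and 1 was higher in edited cells at an adjusted p under 0.05 (limma), where 4.20% of the 9590 genes with such a mean were lower and 2.89% higher. In these libraries *CDH1* (E-cadherin) fell from 150 and 123 to 3.89 and 1.54. The marker that was higher was *KRT8*, which rose from 194 and 175 to 378 and 365 (limma, log2 fold change 1.01, adjusted p = 0.0449). Of 8 fibroblast markers, only *COL1A1* and *DCN* were analysed, and they differed in direction. *COL1A1* was lower, at 3.19 and 5.58 in edited cells against 15.6 and 28.1 in wild-type cells (limma, log2 fold change -2.06, adjusted p = 0.0420). It reached a mean of at least 10 only through its wild-type values. *DCN* was at 15.1 and 105 against 7.42 and 1.09 and did not pass (limma, log2 fold change 3.30, adjusted p = 0.0974). Their sum was 18.3 and 111 in edited cells against 23.0 and 29.2 in the wild-type libraries. No endothelial marker was in the table, and of the leukocyte and adipocyte markers only *CD14* and *FABP4* were. The part of these marker shifts in the results below was not tested. In bulk RNA, fewer cells that express a gene and less RNA per cell cannot be told apart.

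*TMPRSS4*, a type II transmembrane serine protease, was strongly expressed in wild-type cells and nearly absent from edited cells. Its value was 298 and 228 in the wild-type libraries but 0.343 and 0.593 in the edited ones. Both edited libraries lay far below both wild-type libraries. On the log2(value + 1) scale the gap was 0.25 between the edited and 0.38 between the wild-type replicates. The medians over the 9590 genes with a mean of at least 10 were 0.23 and 0.24. The means were 263 ± 49.2 (SD, n = 2) and 0.468 ± 0.177 (SD, n = 2), so that edited cells kept 0.178% of the wild-type level. On the canonical transcript of 5516 bases, this was about 17.8 and 32.3 reads in the edited libraries against about 13652 and 10760 in the wild-type libraries. The log2 fold change of value + 1 was -7.48 (standard error 0.22), the second largest decrease among the 16811 genes. Over fits that each lacked 1 library, it ranged from -7.67 to -7.29. In wild-type cells *TMPRSS4* was the most abundant of the 5 proteases and stood at place 750 of all genes. In edited cells its values overlapped those of *ST14*. The genes *SMIM35* and *LOC105369517* overlap *TMPRSS4* in the annotation and were not analysed here.

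Matriptase (*ST14*) and prostasin (*PRSS8*), the pair that forms the core of the epithelial cascade, were low in the same libraries. *ST14* had a value of 46.8 and 44.7 in wild-type cells against 0.721 and 0.322 in the edited libraries. Edited cells kept 1.14% of its wild-type level, from about 22.4 and 10.5 reads. Its ratio of wild-type over edited means was 87.8, and it was 142 without edited replicate 1. *PRSS8*, which is tethered to the membrane by a lipid anchor, was at 76.5 and 70.2 in wild-type cells against 0.726 and 1.10 in the edited libraries, with 1.24% kept. The groups did not overlap for either gene. The log2 fold changes were -4.95 (standard error 0.29) for *ST14* and -5.29 (standard error 0.24) for *PRSS8*.

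*TMPRSS13* and *PRSS22* were weakly expressed in wild-type cells and close to the limit of detection in edited cells. *TMPRSS13*, another type II transmembrane protease, was at 8.72 and 8.08 in wild-type cells against 0.0768 and 0.0457 in the edited libraries. *PRSS22*, tryptase epsilon, is usually classed as a secreted enzyme rather than a membrane-anchored one. It was at 8.08 and 8.81 in the wild-type libraries, listed at 0 in edited replicate 1 and at 0.0981 in edited replicate 2. The edited values stand for about 2.46 and 1.53 reads of *TMPRSS13* and for about 0 and 1.34 reads of *PRSS22*. No ratio is given for these genes, since so few reads cannot fix one. Their differences on the log2(value + 1) scale, -3.15 for *TMPRSS13* and -3.17 for *PRSS22*, understate the change of such low genes. With a pseudocount of 0.1 they were -5.73 and -5.92, and with a pseudocount of 5 they were -1.40 and -1.41.

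Both inhibitor genes were lower in edited cells but remained expressed. *SPINT2* (HAI-2) was the most abundant member in every library, at 752 and 618 in wild-type cells against 212 and 222 in the edited libraries. Edited cells kept 31.7% of its level, and the ratio of wild-type over edited means was 3.16. *SPINT1* (HAI-1) was at 382 and 222 in wild-type cells against 26.3 and 56.2 in the edited libraries, with 13.6% kept. The lower wild-type value of *SPINT1* was still above the higher edited one. On the log2(value + 1) scale its replicates differed more than those of the other members. The gap was 1.07 between the edited and 0.78 between the wild-type libraries. The medians over the 9590 genes with a mean of at least 10 were 0.23 and 0.24. That scale shrinks gaps between values near 0, such as 0.721 and 0.322 of *ST14* in edited cells, so the ranking holds on that scale only. The log2 fold change was -1.65 (standard error 0.21) for *SPINT2* and -2.89 (standard error 0.43) for *SPINT1*. Without edited replicate 2 the ratio of means of *SPINT1* was 11.5 in place of 7.33. The antisense RNA gene *SPINT1-AS1* overlaps *SPINT1* in the annotation, and whether reads were counted by strand is not given in the sources used here.

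**Figure D1:**
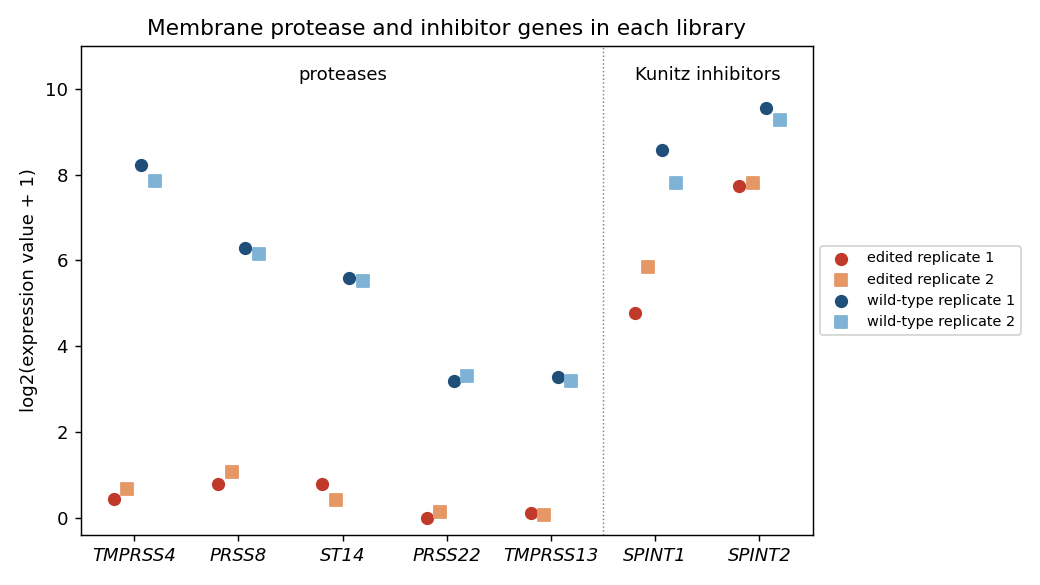
Values of the 7 analysed genes in each of the 4 libraries, as log2(expression value + 1); circles are replicate 1 and squares replicate 2, red and orange edited, dark and light blue wild-type. For each gene both edited libraries lie below both wild-type libraries, with the 5 proteases near 0 in edited cells and *SPINT2* still at 212 and 222 before the log.

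Seen together, both edited libraries lay below both wild-type libraries for 7 of 7 analysed members, an ordering found for 30.2% of all 16811 genes. The members were chosen on this contrast, so nothing is read from this count. Of the 7, 5 had a mean of at least 10, which *TMPRSS4*, *ST14* and *PRSS8* reached only through their wild-type values, and 2 did not. The median log2 fold change was -3.17 over the 7 members and -4.95 over the 5 proteases, against 0.09 over the 9590 genes. These 2 medians are the values of *PRSS22* and *ST14*. Both genes are near 0 in edited cells, where log2(value + 1) understates a change. None of 12 alternatives of pseudocount, filter, scaling, block and left-out library reversed a sign. Where the groups do not overlap, most of these alternatives cannot reverse it, so nothing is read from this either.

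The order of the genes by level differed between the groups. In wild-type cells *SPINT2* was followed by *SPINT1*, *TMPRSS4*, *PRSS8*, *ST14*, *PRSS22* and *TMPRSS13*. *SPINT1* overlapped *TMPRSS4* between libraries there, and *PRSS22* overlapped *TMPRSS13*. In edited cells *SPINT2* and *SPINT1* were followed, by their means, by *PRSS8*, *ST14*, *TMPRSS4*, *TMPRSS13* and *PRSS22*. *ST14* and *TMPRSS4* overlapped there, as did *TMPRSS13* and *PRSS22*. On the assumption that the values are per length, the members were added up within a library. The 5 proteases summed to 438 and 360 in wild-type cells but to 1.87 and 2.15 in edited cells. The 2 inhibitors summed to 1134 and 840 in wild-type cells against 239 and 278 in the edited libraries. The inhibitor sum was thus 2.59 and 2.33 times the protease sum in wild-type cells and 128 and 129 times in edited cells. Most of the wild-type protease sum was *TMPRSS4*, at 298 and 228, the gene chosen for its difference. *TMPRSS3*, a membrane-anchored protease that is no member, was left out of the sum. It was at 4.16 and 4.69 in edited cells, above the sum of the 5 proteases there, so the edited ratio depends on the genes chosen. All these values are RNA levels, and protein was not measured in these files.

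**Figure D2:**
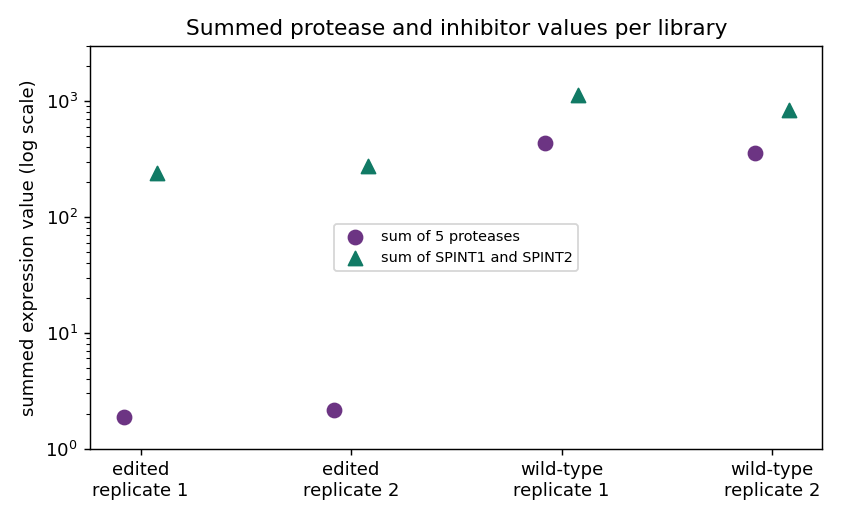
Summed expression values of the 5 proteases (circles) and of *SPINT1* and *SPINT2* (triangles) in each library, on a log axis. The inhibitor sum exceeds the protease sum 2.59 and 2.33 times in the wild-type libraries and 128 and 129 times in the edited libraries. *TMPRSS3*, which is no member, is not in the protease sum.

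The members lie on several chromosomes, given here on GRCh38, which is also the build of the submitters' processing notes. *TMPRSS4* lies on the plus strand of chromosome 11 (118077078 to 118125505) and *TMPRSS13* on the minus strand of the same chromosome (117900641 to 117929402), with 147675 bases between them. *ST14* lies on the plus strand of chromosome 11 (130159782 to 130210362). *PRSS8* (31131433 to 31135727) and *PRSS22* (2852730 to 2858170) lie on the minus strand of chromosome 16. *SPINT1* is on the plus strand of chromosome 15 (40844048 to 40858207) and *SPINT2* on the plus strand of chromosome 19 (38264573 to 38292615). The canonical transcripts code for 437 residues (*TMPRSS4*, 13 exons), 567 (*TMPRSS13*, 13 exons), 855 (*ST14*, 19 exons), 343 (*PRSS8*, 6 exons) and 317 (*PRSS22*, 6 exons). Those of the inhibitors code for 513 residues (*SPINT1*, 11 exons) and 252 residues (*SPINT2*, 7 exons). *TMPRSS4* and *TMPRSS13* thus share their exon number, as do *PRSS8* and *PRSS22*.

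The promoter windows of *SPINT1* are shown because it was the analysed member with windows in the table used. They run from 250 bases before to 50 bases after each of its annotated starts (RefSeq, GRCh38.p14, plus strand, 5′ to 3′), at chr15:40843798-40844097 and chr15:40844227-40844526. Capitals mark the E-box CAGGTG, a motif bound by ZEB and SNAI repressors.

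*SPINT1* window 1: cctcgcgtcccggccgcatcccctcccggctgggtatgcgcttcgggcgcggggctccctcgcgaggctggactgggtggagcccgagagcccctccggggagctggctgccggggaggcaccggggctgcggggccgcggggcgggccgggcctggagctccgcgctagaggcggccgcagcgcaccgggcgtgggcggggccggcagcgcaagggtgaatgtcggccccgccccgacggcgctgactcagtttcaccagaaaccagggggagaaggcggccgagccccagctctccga

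*SPINT1* window 2: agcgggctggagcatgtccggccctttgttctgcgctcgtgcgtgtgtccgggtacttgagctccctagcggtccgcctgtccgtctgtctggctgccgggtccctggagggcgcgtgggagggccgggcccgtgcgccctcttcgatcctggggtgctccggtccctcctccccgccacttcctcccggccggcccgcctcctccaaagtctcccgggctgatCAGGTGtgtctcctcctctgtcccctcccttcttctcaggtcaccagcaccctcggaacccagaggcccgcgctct

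The windows were searched for CACCTG and its reverse complement CAGGTG, and for the grainyhead-like motif AACCNGTT and its reverse complement AACNGGTT. The E-box was found once, beginning 26 bases before the annotated start within window 2, and 20.6% of 35116 windows of the same length hold it on either strand. The grainyhead-like motif was found in neither window, and 1.73% of all windows hold it. Windows of *TMPRSS4*, *ST14*, *PRSS8*, *PRSS22*, *TMPRSS13* and *SPINT2* were not in the table used.

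The genes nearest to *TMPRSS4* were compared in the same way, passing over genes without a value. The 5 nearest genes of the table on each side were taken. They start from -791 kb (*BACE1*) to 359 kb (*KMT2A*) from the start of *TMPRSS4*, so not all are adjacent genes. Of them, 9 are no members. Of these, 1 was lower at an adjusted p under 0.05, *MPZL2*, which encodes an epithelial adhesion molecule of the immunoglobulin family. Over all genes, 4.20% of those with a mean of at least 10 and 3.55% of the others were lower. Both edited libraries lay below both wild-type libraries for 5 of the 9, against 30.2% of all genes. *MPZL2* starts 176 kb beyond the start of *TMPRSS4* and had a value of 123 and 129 in wild-type cells against 17.9 and 18.5 in edited cells (limma, log2 fold change -2.72, standard error 0.16, adjusted p = 0.00328). *SCN4B* and *MPZL3*, which lie between them, had values with a mean under 10. Their log2 fold changes were -1.62 (adjusted p = 0.0858, limma fit of all genes) and -1.20 (adjusted p = 0.0558), and neither passed the threshold. With equal library totals *MPZL3* did (limma, adjusted p = 0.0473), and its adjusted p reached 0.232 over 13 alternatives. The call on *MPZL2* was lost when either wild-type library was left out, and its adjusted p from limma ranged from 0.000460 to 0.0767 over 13 alternatives. Beyond *MPZL2*, *UBE4A* had a log2 fold change of 0.07 and *KMT2A* of -0.22. On the other side, past *TMPRSS13*, *FXYD6* was at -1.24, *CEP164* at 0.46, *BACE1-AS* at -0.09 and *BACE1* at -0.32, none past the threshold. Over the 534 genes of chromosome 11 with a mean of at least 10, the median log2 fold change was 0.16.

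**Figure D3:**
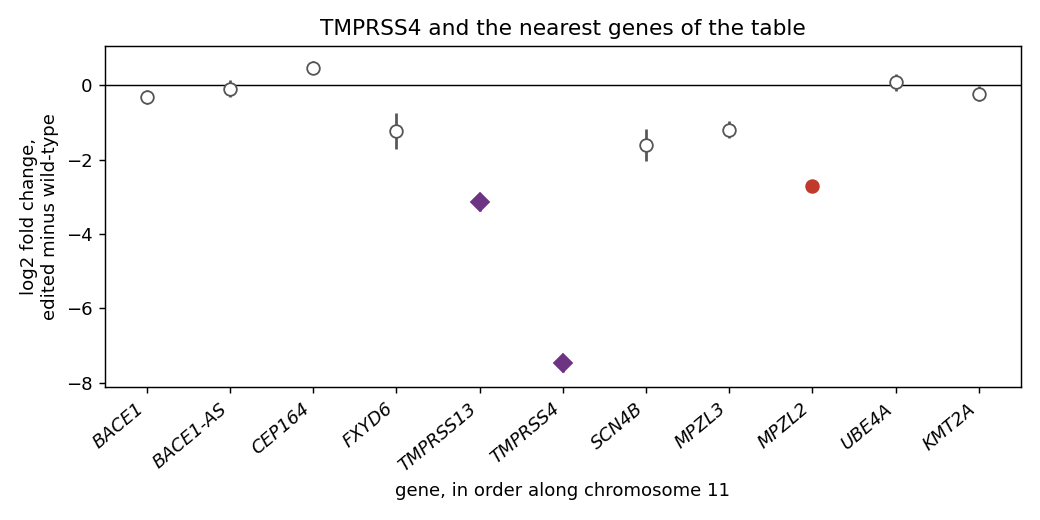
Log2 fold change of value + 1, edited minus wild-type, with its standard error, for *TMPRSS4* and the 5 nearest genes of the table on each side, in their order along chromosome 11. Diamonds are the members *TMPRSS4* and *TMPRSS13*, the filled circle is *MPZL2*, the neighbour past an adjusted p of 0.05, and open circles did not pass; *UBE4A* and *KMT2A* lie near 0.

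Genes whose pattern was most like that of *TMPRSS4* were found by the distance between profiles of log2(value + 1) over the 4 libraries, each gene centred on its own mean, among the 9590 genes. The distance is a description over 4 libraries in 2 groups, and no p is given for it. It uses the values by which *TMPRSS4* was chosen, so the places below are not read as a result. The closest gene was *HOXA9*, a homeobox transcription factor gene, at a distance of 0.972, with 172 and 148 in wild-type cells against 0.157 and 1.21 in the edited libraries. *S100A7* (psoriasin) followed at 1.14, with 970 and 366 against 0.534 and 1.19. *ITGB6*, an epithelial integrin chain, was at 1.21, *LCN2* (lipocalin 2) at 1.29 and *EHF*, an epithelial ETS factor, at 1.41. These 5 genes reached a mean of at least 10 only through their wild-type values. Among the members, *PRSS8* was at place 10 in this order, *ST14* at place 17, *SPINT1* at place 93 and *SPINT2* at place 260. *TMPRSS13* and *PRSS22*, with a mean under 10, were not compared.

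Other genes around these proteases were taken from 5 lists, which hold 73 genes, 39 of them in the table. The lists were written with earlier results of these data known. Of 26 genes with a mean of at least 10, 3 were higher and 2 lower in edited cells at an adjusted p under 0.05 (limma, over all genes tested), where 2.89% of all such genes were higher and 4.20% lower. Of 13 genes under that mean, 1 was higher and the other genes did not pass, where 1.07% of all such genes were higher and 3.55% lower.

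Proteins that matriptase or its relatives are known to cut, and the receptors downstream, had 10 genes with a mean of at least 10, of which 1 was lower and 9 did not pass. The median log2 fold change over the 14 genes analysed was -0.29. *EPCAM*, an epithelial surface marker and matriptase substrate, was at 57.6 and 27.8 in wild-type cells against 9.93 and 5.29 in edited cells (limma, log2 fold change -2.31, adjusted p = 0.0411). It reached a mean of at least 10 only through its wild-type values. In the limma fit of all genes, with no filter, it did not pass (adjusted p = 0.0522). Nearest to the threshold among the 9 were *DSG2* (limma, log2 fold change -1.44, adjusted p = 0.0506) and *EGFR* (-1.21, adjusted p = 0.0958). *DSG2* passed with a pseudocount of 5 and with equal library totals. *F2RL1*, which encodes the protease-activated receptor PAR2, was at 28.5 and 21.3 in wild-type cells against 22.1 and 30.9 in the edited libraries, and the groups overlapped (limma, log2 fold change 0.08, standard error 0.24, adjusted p = 0.843). *SCNN1A*, the alpha subunit of the epithelial sodium channel that prostasin activates, was at 394 and 255 against 326 and 304, with a log2 fold change of -0.01 (standard error 0.27). *MET*, the receptor of hepatocyte growth factor, was at 127 and 88.6 in wild-type cells against 64.0 and 84.2 in the edited libraries and did not pass (limma, log2 fold change -0.53, adjusted p = 0.220). *MST1R*, the receptor of macrophage-stimulating protein, had overlapping groups at 9.41 and 4.07 against 2.95 and 8.25. *HGF* was not analysed here.

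In the urokinase and plasminogen system, 1 of 8 genes with a mean of at least 10 was higher and 7 did not pass, with a median log2 fold change of 0.03 over the 9 genes analysed. The gene that passed was *SERPINE2* (protease nexin-1), a secreted inhibitor of thrombin and urokinase. It was at 122 and 830 in edited cells against 21.0 and 5.94 in the wild-type libraries, so that both pairs of replicates differed widely (limma, log2 fold change 4.70, standard error 0.97, adjusted p = 0.0494). Its call was lost under 8 of 13 alternatives at the same threshold, over which the adjusted p ranged from 0.00133 to 0.265. Fits that each lacked 1 library gave log2 fold changes of *SERPINE2* from 3.32 to 6.07. *PLAU*, which encodes urokinase, was at 283 and 334 in wild-type cells against 9.52 and 81.8 in the edited libraries. Both edited values were lower, but the edited replicates lay far apart and the gene did not pass (limma, log2 fold change -3.38, standard error 0.91, adjusted p = 0.0770). When 1 library was removed, the log2 fold change of *PLAU* ranged from -4.87, without edited replicate 2, to -1.90, without edited replicate 1. In both of these fits its adjusted p was under 0.05, and its range over the alternatives was 3.09e-05 to 0.319. The urokinase receptor gene *PLAUR* was at 58.8 and 39.5 in wild-type cells against 40.1 and 78.3 in the edited libraries, with overlapping groups.

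Among other Kunitz and Kazal inhibitors, both genes that passed were Kazal-type genes and higher in edited cells. Of 5 such inhibitor genes with a mean of at least 10, 1 was higher and 4 did not pass, and of 2 genes under that mean 1 was higher, with a median log2 fold change of 0.36 over all 7. *SPINK6*, a Kazal inhibitor of kallikrein proteases, was at 25.4 and 21.8 in edited cells against 0.739 and 3.77 in wild-type cells (limma, log2 fold change 3.09, standard error 0.52, adjusted p = 0.0349). It reached a mean of at least 10 only through its edited values. In the limma fit of all genes, with no filter, its adjusted p was 0.0412. *SPINK13*, another Kazal-type gene, was at 4.55 and 2.69 in edited cells against 0.163 and 0.454 in wild-type cells (limma, log2 fold change 1.80, adjusted p = 0.0475). These calls were lost under 6 and 8 of 13 alternatives, with adjusted p from 0.0163 to 0.165 and from 0.0396 to 0.225. *SPINK5*, also of the Kazal type, was lower in both edited libraries, at 0.247 and 0.221 against 1.06 and 4.08 in wild-type cells, and did not pass (limma, log2 fold change -1.39, adjusted p = 0.131). *APP* and *APLP2*, which carry a Kunitz domain in some of their forms and were abundant throughout, had log2 fold changes of -0.16 and 0.28.

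Among other trypsin-like proteases, mostly secreted, 1 of 3 genes with a mean of at least 10 was higher, 1 was lower and 1 did not pass. The median log2 fold change was -0.69 over the 8 such genes analysed. *HTRA1*, a secreted protease of the extracellular matrix, was at 479 and 674 in edited cells against 81.5 and 61.0 in the wild-type libraries, a ratio of 8.09 (limma, log2 fold change 2.99, standard error 0.27, adjusted p = 0.00865). *PRSS12* (neurotrypsin) was at 9.79 and 16.1 in edited cells against 37.1 and 45.7 in wild-type cells (limma, log2 fold change -1.64, standard error 0.27, adjusted p = 0.0346). Of 17 other membrane-anchored serine proteases, 1 was in the table. *TMPRSS3* was at 4.36 and 4.91 in wild-type cells against 4.16 and 4.69 in the edited libraries, so its groups overlapped (limma, log2 fold change -0.05, standard error 0.22, adjusted p = 0.897).

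**Figure D4:**
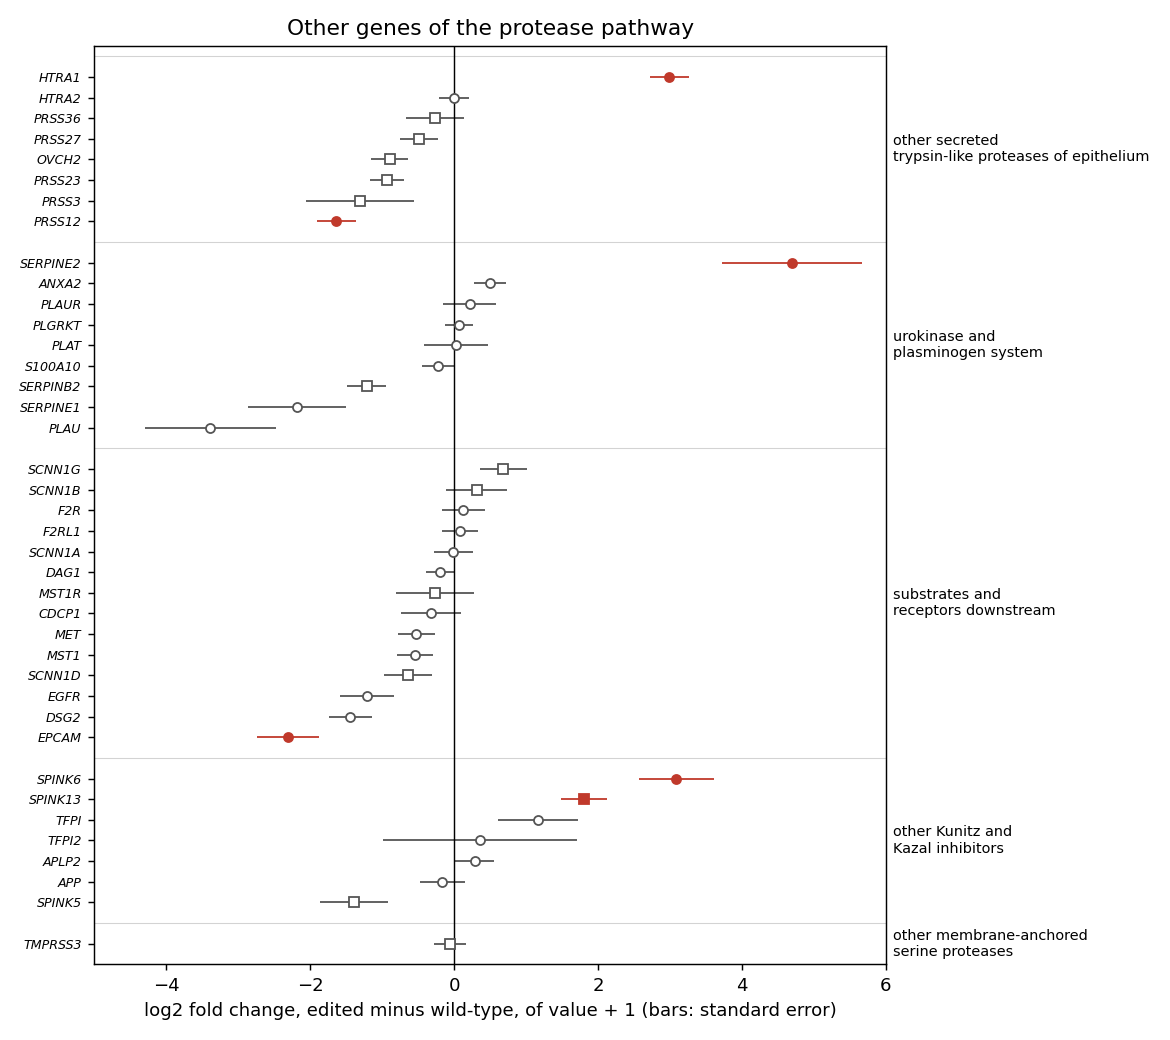
Log2 fold change of value + 1, edited minus wild-type, with its standard error, for the 39 analysed genes of the 5 lists. Red filled symbols passed an adjusted p of 0.05 (limma) and open symbols did not; squares are genes with a mean under 10. *PLAU*, which did not pass, lies lowest at -3.38 and *SERPINE2* highest at 4.70.

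The calls on these 39 genes depended on the libraries and settings, as did the calls over all genes. A fit that lacks 1 library leaves a single library in 1 group, so its number of calls says little about these genes. Of 13 alternatives at the same threshold, 2 lost the call on *HTRA1*, 3 that on *PRSS12* and 4 that on *EPCAM*. The smallest two-sided p that an exact permutation test can give with 2 libraries a group is 0.333, and limma's calls draw on a variance pooled over genes.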

How the data were processed

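Poly(A)-selected RNA of 2 edited and 2 wild-type MCF12A samples was sequenced, and each library's group and replicate number come from its labels. The authors deposited 1 table of normalized expression signal for 16811 genes by symbol, not counts, and its 4 columns matched the sample labels. The submitters' processing notes name HISAT2, Salmon and hg38, with no role or version, and the normalization is not given in the sources used here. The members and lists were chosen with earlier results of these data known.

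Log2(value + 1) was compared with limma 3.58.1 (R 4.3.3, lmFit and eBayes with trend, no block) on the 9590 genes whose mean value reached 10. P-values were adjusted by Benjamini-Hochberg and called under 0.05, the level of the study's statistics section. The stricter 0.001 that it used for RNA-seq was an alternative. Genes under that mean were taken from the same fit on all 16811 genes. Pseudocounts of 0.1 and 5, other filters and scalings, a replicate block, no trend and leaving out each library were alternatives. A library left alone in its group was assumed to vary like the other group. A gene of the lists is not reported here. The fit was tested on simulated data. Named genes were the members, called list genes (at most 6 a list), 8 fixed genes (*HGF* not analysed), the 5 profiles nearest *TMPRSS4* and its 10 neighbours. *KRT5*, *KRT8*, *CDH1*, *COL1A1*, *DCN*, *CD14*, *FABP4*, *DSG2*, *EGFR*, *SPINK5*, *APP*, *APLP2* and *TMPRSS3* were added after their values were seen. Positions, promoter windows and overlaps came from RefSeq (GRCh38.p14), and transcript lengths, exons and coding lengths from GENCODE version 44. With 2 libraries a group, p-values rest on the spread between these libraries, moderated by a variance pooled over genes. They do not cover differences between clones. Python 3.11.15, pandas 2.3.3 and numpy 2.4.6 were used.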

Additional observations from a re-analysis of the deposited data

How the results depend on the processing

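The log2 fold change of *TMPRSS4* was -8.88 with a pseudocount of 0.1 and -5.60 with 5, and the median over the 7 analysed members was -5.92 and -2.76. Left-out libraries moved that median from -3.42 to -3.17. Equal library totals moved the median of all tested genes from 0.09 to -0.03. Against 680 genes called by limma, 419 were called with a mean of at least 50, 133 with the replicate block and 1 at an adjusted p under 0.001. Leaving out 1 library gave 4 (without wild-type replicate 2) to 1559 (without edited replicate 2). Of the 39 list genes, 6 were called, against 3 with a pseudocount of 0.1, 2 with the replicate block (*EPCAM* and *HTRA1*) and 0 at 0.001, where 14 had an unadjusted p under 0.05, and from 0 to 9 with 1 library left out. An unadjusted p under 0.05 (limma) was also found for 3095 of the 9590 genes, and for 4909 of all 16811 genes without a filter. Nothing is therefore read from the 14 list genes with such a p. Deviations of same-numbered libraries correlated at -0.14 across 9590 genes, which gives no sign that the numbers paired the samples. With 1 replicate difference in each group, this cannot settle whether they did. The crossed pairing, chosen after seeing the data, called 1002 genes and 10 list genes.

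The depth limits *TMPRSS13* and *PRSS22* most, with at most 2.46 estimated reads in an edited library.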
